A study of Homo sapiens with 9 samples.

Results

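Hairpin #3 cells were compared with hairpin #1 cells, that is, 2 populations of the ovarian cancer line OVCA433 in which different short hairpin RNAs (shRNAs) against the same gene, MPZL3, had been expressed. The comparison used 6 of the 9 RNA sequencing libraries of the series, replicates A, B and C of shRNA#1-MPZL3 and replicates A, B and C of shRNA#3-MPZL3, and the 3 libraries of the control vector entered the fit to share its estimate of spread. OVCA433 is an established line labelled as serous adenocarcinoma of the ovary, and all groups shared its untreated background and culture medium with serum. The hairpins were delivered by lentivirus, and the labels do not say whether the 3 libraries of a hairpin came from separate transductions or cultures. The p-values therefore measure the spread between these libraries, and a difference caused by the hairpin sequence and a difference between 2 transduced populations cannot be told apart. Of 58676 genes in the count table, 15975 passed a filter on low counts and were tested, and 1198 of these were on lists of matrix, cytokine, lineage and metabolic genes.

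MPZL3 is a predicted cell adhesion protein with an immunoglobulin-like domain. Hairpins of different sequence against 1 transcript are commonly used side by side, and the comparison asks which genes differ between populations in which the target is at a like level. The 4 kinds of genes described here have known roles in ovarian tumours. Matrix genes encode the collagens, glycoproteins and proteoglycans that cells secrete around themselves, with the enzymes that cut or cross-link them. Cytokine and growth factor genes encode secreted signals and their receptors. Lineage genes mark the type of cell, in serous tumours the Müllerian epithelium with the transcription factors PAX8 and SOX17. Metabolic genes include the sterol pathway, which cells raise when sterols run low, and the detoxifying enzymes that the transcription factor NRF2 switches on under oxidative stress.

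The libraries held 16850854 to 23890191 counts. Values are given as CPM, the count scaled to library size with TMM factors, for replicates A, B and C in that order, and the spread as the SD over n = 3. Where 2 levels are joined by "to" or "and" without a group, they are the means of hairpin #1 and hairpin #3 in that order, and "log2" is the difference, hairpin #3 minus hairpin #1, with its edgeR adjusted p. Pairs of replicates had a Pearson r of 0.991 to 0.996 over log2 values of genes, which are not independent of each other. Of 16 markers of serous ovarian epithelium, 12 had a mean of at least 1 CPM in both hairpin groups, which does not mean a kept level. PAX8 (199.9 ± 12.2 CPM with hairpin #1, 207 ± 20.6 CPM with hairpin #3, control 96.99 CPM), SOX17 and MSLN had hairpin means above control. KRT7, KRT8, KRT18 and MECOM had means below it. EPCAM (control 402.6, hairpin #1 5.48 and hairpin #3 8.93 CPM), CLDN4 (500, 3.59 and 8.24 CPM in that order), KRT19, CLDN3 and WFDC2 were far below control. CDH1, the epithelial cadherin, was at 275.3 CPM in control cells but at 0.112 CPM with hairpin #1 and 0.148 CPM with hairpin #3, MUC16 (CA125) was at 0 in all 6 hairpin libraries, and WT1 was at 0 in all 9. Markers of blood, endothelial and other cells (21 genes) summed to 4.67 to 6.65 CPM with hairpin #1 and 7.46 to 9.21 CPM with hairpin #3, and LYZ, HBB, HBA2 and ADIPOQ were at 0 in every library. In each hairpin group 6 of the 21 were at 0 in all 3 libraries, and the endothelial cadherin CDH5 was the highest of them in each hairpin library, at under 6 CPM. The part of such cells in the differences was not tested. In bulk RNA, fewer cells with a transcript and less transcript per cell cannot be told apart.

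MPZL3 itself (chromosome 11, 118226690 to 118252350 on hg38) was compared first, because it checks the labels and the premise of like knockdown. Its level was 15.6, 21.9 and 21.03 CPM in the control libraries, 1.87, 1.98 and 1.80 CPM with hairpin #1 and 1.94, 0.988 and 1.79 CPM with hairpin #3. All 6 hairpin libraries lay below all control libraries, while the hairpin groups overlapped. The means were 9.66% and 8.07% of control, and the difference from hairpin #1 to hairpin #3 did not pass the test (log2 difference -0.21, SE 0.26, edgeR adjusted p = 0.733), which does not show equal levels.

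Whole chromosomes differed between the hairpin populations before any single gene was considered. The median log2 difference, hairpin #3 minus hairpin #1, over genes averaging 10 CPM or more was 0.40 on chromosome 4, 0.33 on chromosome 20, 0.20 on chromosome 9, 0.15 on chromosome 12, 0.14 on chromosome 8 and -0.18 on chromosome 5, and it lay between -0.10 and 0.03 on the others. On chromosome 4 the 3 hairpin #3 libraries stood at 0.424, 0.404 and 0.378 against the mean hairpin #1 library, and the control libraries at 0.455, 0.410 and 0.307. On chromosome 20 the hairpin #3 libraries stood at 0.315, 0.339 and 0.330 and the control libraries at 0.300, 0.324 and 0.357. On these 2 chromosomes hairpin #1 was therefore the lowest of the 3 groups, whereas on chromosome 9 hairpin #3 (0.162 to 0.236) stood above both hairpin #1 and control (-0.031 to -0.010). DNA copy number was not measured. The median of each gene's chromosome was subtracted from every difference given here, which lowered the number of genes called (adjusted p under 0.05 and at least 2-fold) from 628 (3.93% of those tested) to 564 (3.53%).

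On chromosome 5 a single median did not describe the shift. The 75 genes of the short arm with at least 10 CPM had a median difference of -0.753 before subtraction, 59.3% of the hairpin #1 level, and 74 of them were below 0. The 387 genes of the long arm had a median of -0.141. Against the mean hairpin #1 library, the short arm stood at -0.626, -0.821 and -0.872 in the hairpin #3 libraries and at -0.417, -0.515 and -0.582 in the control libraries, so that hairpin #1 was the highest of the 3 groups. Subtracting the chromosome median of -0.18 left most of this step in place. Of 139 tested short-arm genes, 15 were called lower with hairpin #3 and 2 higher. With the median of the 50 neighbouring genes subtracted instead, 4 were called lower and 3 higher. Differences of the named genes on the short arm, CDH6, LIFR, ADAMTS16 and HMGCS1, are therefore given both ways.

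**Figure D1:**
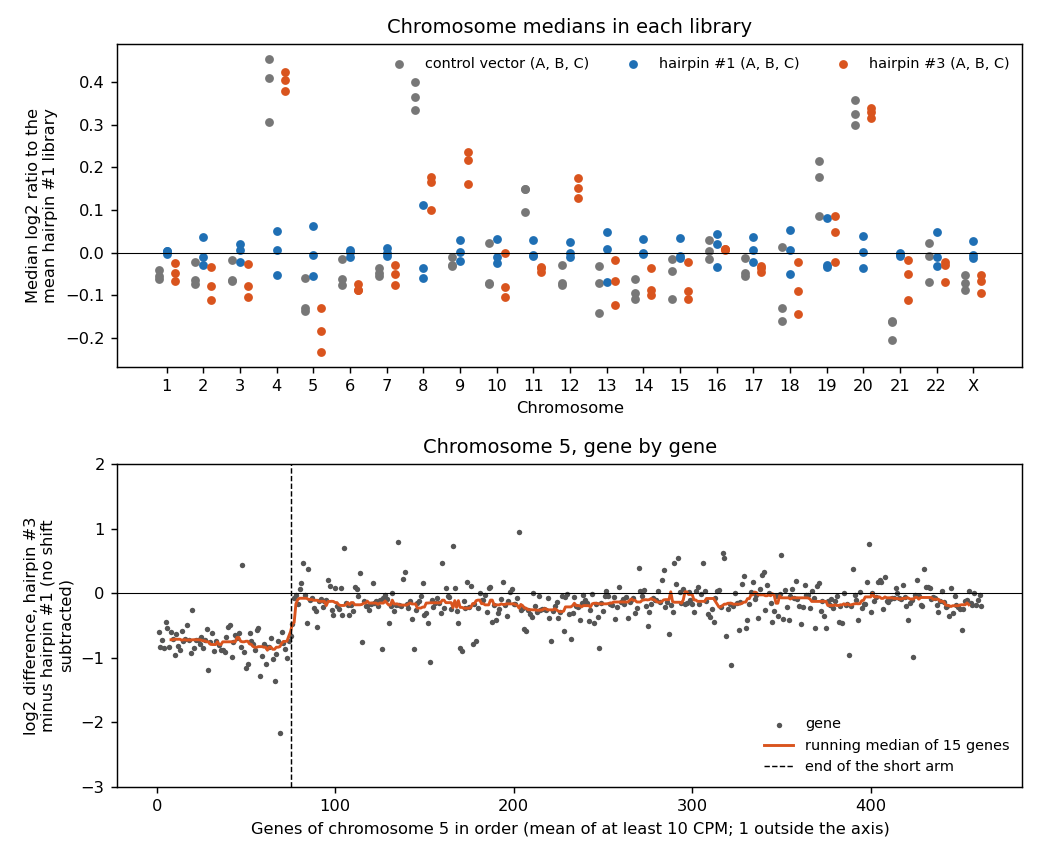
Upper panel, median log2 ratio of each library to the mean hairpin #1 library, by chromosome, over genes averaging 10 CPM or more (points, replicates A, B and C of each group). Lower panel, log2 difference of each such gene of chromosome 5 in gene order before subtraction, with a running median: the 75 genes of the short arm lie around -0.753 and the long arm around -0.141.

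Beyond the shifts, 327 genes (2.05% of those tested) were higher and 237 (1.48%) lower with hairpin #3. Of the 564, 241 differed at least 4-fold, 155 of them higher, and 307 higher and 229 lower genes were also called before subtraction. The 3 and 3 libraries did not overlap in 556 of the 564, and did not overlap in 27.7% of all tested genes. At any fold, 617 genes (3.86%) were higher and 643 (4.03%) lower at an adjusted p under 0.05. A share of the called genes was at the detection floor in 1 population: 53 higher genes had at most 3 counts in every hairpin #1 library, 20 of them with no count at all, and 25 lower genes had at most 3 counts in every hairpin #3 library, 8 with none.

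The genes with the largest differences were read in one population and almost absent from the other. TMEM246, a membrane protein of the secretory pathway, had no count in the 3 hairpin #1 libraries and 15.2, 18.4 and 16.9 CPM with hairpin #3. With the floor set at 3 counts per library, it was at least 104-fold higher with hairpin #3 (edgeR adjusted p = 5.67e-08), and it was at 4.61 CPM in control. PDPN, podoplanin, a mucin-type glycoprotein of mesothelial and lymphatic cells that is linked to motility, was at 0.187, 0.153 and 0.472 CPM with hairpin #1 and 79.7, 72.3 and 82.2 CPM with hairpin #3. The groups lay far apart (log2 difference 8.14, SE 0.22, edgeR adjusted p = 2.85e-10), with control between them at 12.6 CPM. RBFOX3, the neuronal splicing factor NeuN, was at 0.561, 0.865 and 1.42 CPM with hairpin #1 and 15.2, 22 and 34.5 CPM with hairpin #3 (log2 difference 4.67, SE 0.43, edgeR adjusted p = 2.10e-05), and at 0.165 CPM in control. FAM133A differed in the same direction (0.373 to 11.9 CPM from the hairpin #1 to the hairpin #3 mean, log2 5.04, adjusted p = 3.06e-06).

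EMC10 and DNAJC15 showed another arrangement, with control and hairpin #3 alike and hairpin #1 low. EMC10, a subunit of the complex that inserts membrane proteins into the endoplasmic reticulum, was at 0.28, 0.407 and 0.729 CPM with hairpin #1, 28.5, 31.3 and 25.4 CPM with hairpin #3 and 33.5, 29.4 and 26.5 CPM in control. The hairpin #1 libraries were thus the exception (log2 difference 5.84, SE 0.23, edgeR adjusted p = 1.58e-08 between the hairpins). DNAJC15, a mitochondrial co-chaperone known to be silenced by promoter methylation in ovarian cancer, was at 0.561, 1.73 and 1.24 CPM with hairpin #1, 31.4, 31.4 and 32.3 CPM with hairpin #3 and 32.4, 29.3 and 33.9 CPM in control (log2 difference 4.83, SE 0.23, edgeR adjusted p = 5.67e-08).

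In the other direction, FAM155B, a subunit of the NALCN sodium leak channel complex, was at 21.2, 16.9 and 21.7 CPM with hairpin #1 and at no more than 1 count in any hairpin #3 library. It was at least 118-fold lower with hairpin #3 (edgeR adjusted p = 3.39e-08). XYLT1, the xylosyltransferase that starts glycosaminoglycan chains on proteoglycans, was at 14.3, 14.2 and 14.7 CPM with hairpin #1 and 0.588, 0.384 and 0.138 CPM with hairpin #3. Here hairpin #3 was the exception, because control libraries were at 16.7, 16.02 and 21.03 CPM (log2 difference -5.33, SE 0.28, edgeR adjusted p = 1.17e-07 between the hairpins). PWP2, a ribosome assembly factor, was placed likewise (control 11.8, hairpin #1 11 and hairpin #3 0.744 CPM, log2 -3.85, adjusted p = 1.20e-06). So was PCSK1N, an inhibitor of a prohormone convertase, at control, hairpin #1 and hairpin #3 means of 15.8, 12.6 and 1.33 CPM (log2 -3.16, adjusted p = 3.20e-06). SAMD5 was high with hairpin #1 only, at 0.776, 33.03 and 4.89 CPM in the same order (log2 -2.65, adjusted p = 0.000381).

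**Figure D2:**
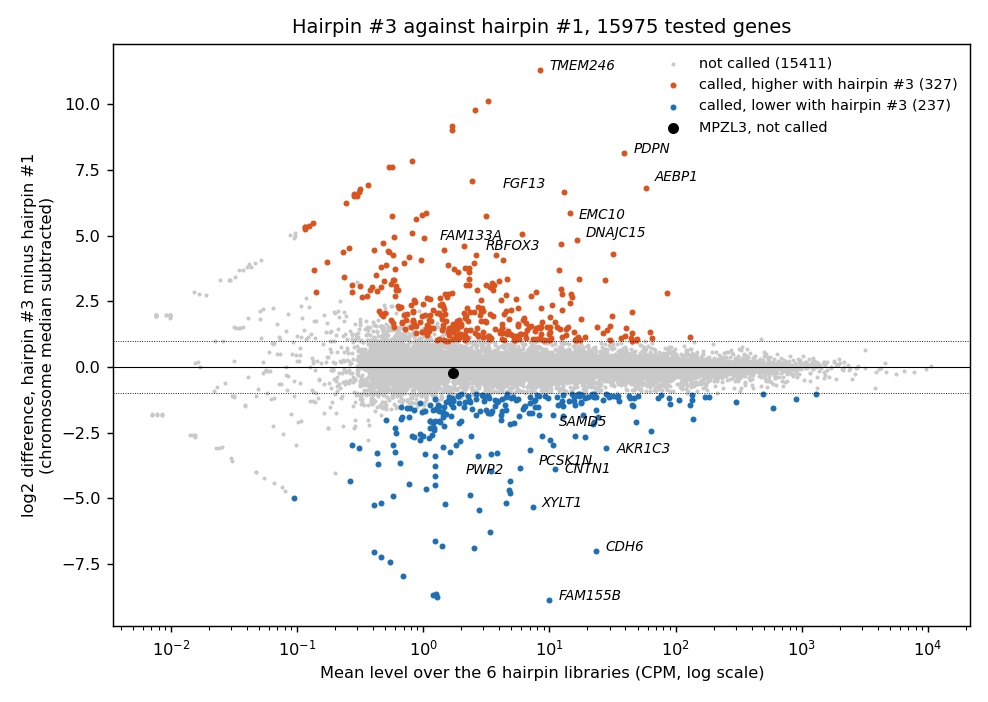
Log2 difference of each tested gene, hairpin #3 minus hairpin #1 with the chromosome median subtracted, against the mean CPM of the 6 hairpin libraries. Colours mark the 327 genes called higher and 237 called lower, dotted lines the 2-fold threshold and the black point MPZL3; fitted differences of genes at the floor in 1 group depend on the fit's prior count.

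The control libraries place each difference. On the log2 scale the control mean lay between the hairpin means for 214 of the 564 called genes, above both for 185 and below both for 165. It was nearer to hairpin #1 for 238 genes and nearer to hairpin #3 for 326. Among the called matrix genes 13 were nearer to hairpin #1 and 11 to hairpin #3, and among the called lineage genes 13 and 23.

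Lists of the 4 kinds of genes held more called members than the 3.53% of all tested genes: 24 of 215 matrix genes (11.2%), 23 of 226 cytokine genes (10.2%), 36 of 304 lineage genes (11.8%) and 38 of 453 metabolic genes (8.39%). These are descriptions of lists chosen with results of these data known, and no list was tested. Of the calls, 16 matrix genes were higher and 8 lower with hairpin #3, 15 and 8 cytokine genes, 25 and 11 lineage genes and 13 and 25 metabolic genes, beside 327 and 237 over all genes, and the difference between the kinds was not tested. At any fold the counts at an adjusted p under 0.05 were 27 higher and 24 lower for matrix, 26 and 17 for cytokine, 39 and 25 for lineage and 18 and 68 for metabolic genes. The median log2 difference was 0.005 over the matrix genes, 0.039 over the cytokine genes, 0.079 over the lineage genes and -0.095 over the metabolic genes, beside 0.005 over all tested genes.

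**Figure D3:**
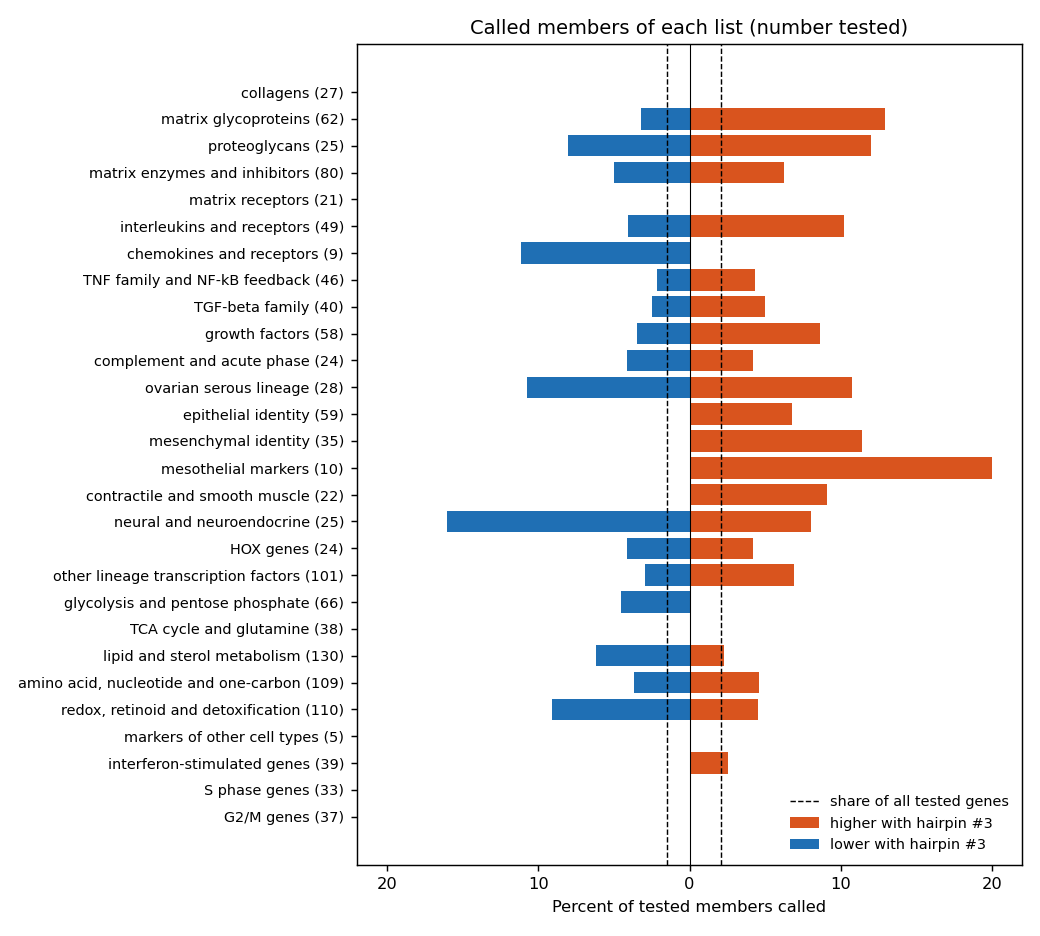
Percent of the tested members of each list called higher (right) or lower (left) with hairpin #3; dashed lines give the shares over all tested genes, 2.05% and 1.48%, and numbers in brackets the members tested. Collagens, matrix receptors, TCA cycle, S phase and G2/M lists had no called member.

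Called matrix genes included glycoproteins and proteoglycans. Of 62 tested glycoproteins 8 were higher and 2 lower with hairpin #3, and of 25 proteoglycans 3 were higher and 2 lower. AEBP1, a collagen-binding protein of fibrous matrix, was at 0.608, 1.42 and 1.16 CPM with hairpin #1 and 72.03, 121 and 154 CPM with hairpin #3. All hairpin #3 libraries exceeded all others (log2 difference 6.81, SE 0.32, edgeR adjusted p = 5.67e-08), with control at 21.01 CPM. LAMA4, a laminin chain of vessel and mesenchymal basement membranes, was at 4.21, 6.11 and 5.53 CPM with hairpin #1 and 30.2, 41.9 and 77.3 CPM with hairpin #3 (log2 difference 3.33, SE 0.32, edgeR adjusted p = 3.13e-05). BGN, the small leucine-rich proteoglycan biglycan, was at 13.7, 28.5 and 24.4 CPM with hairpin #1 and 154, 144 and 144 CPM with hairpin #3. Both hairpin groups stood above control (0.647 to 0.969 CPM), and hairpin #3 was the higher (log2 difference 2.81, SE 0.20, edgeR adjusted p = 2.60e-06). On the other strand BGN overlaps HAUS7, which was counted far less.

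POSTN, periostin, a matricellular protein of fibroblasts, was at or below 0.374 CPM in every hairpin #1 library and at 4.53, 3.18 and 4.46 CPM with hairpin #3 (log2 difference 4.59, SE 0.48, edgeR adjusted p = 5.67e-05). SPOCK2, a testican proteoglycan, was higher with hairpin #3 (0.314 to 4.73 CPM, log2 3.95, adjusted p = 3.49e-05) but stayed far below its control mean of 145 CPM. SRPX (2.04 to 9.32 CPM, log2 2.26, adjusted p = 7.20e-05) was the sixth gene named as higher. Others called higher included LTBP4, which anchors latent TGF-beta in matrix (17.1 to 73.9 CPM, log2 2.09, adjusted p = 0.00122), THBS4, LAMA1, VWA1 (0.97 before the chromosome shift) and the testican SPOCK1 (3.03 to 9.62 CPM, log2 1.85, adjusted p = 0.00112). SPP1, osteopontin on chromosome 4, was called lower (26.8 to 16.4 CPM, log2 -1.11, adjusted p = 0.000216) only after the shift, its difference before it being -0.71.

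Lower matrix genes included a pair of cell surface proteoglycans. GPC6, glypican 6, was at 4.44, 5.95 and 4.72 CPM with hairpin #1, and had at most 2 counts in any hairpin #3 library and none in control. It was at least 30.1-fold lower with hairpin #3 (edgeR adjusted p = 2.83e-05). SDC2, syndecan 2, was at 10.1, 7.48 and 2.44 CPM with hairpin #1 and 0, 0.274 and 0 CPM with hairpin #3 (log2 difference -6.28, SE 0.74, edgeR adjusted p = 0.00015), with control at 3.17 CPM. SULF1, the extracellular sulfatase that removes sulfate from heparan chains, was at 2.52, 3.31 and 1.84 CPM with hairpin #1 and had no count with hairpin #3, at least 17.7-fold lower (edgeR adjusted p = 0.000135).

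Among 80 tested matrix enzymes and inhibitors 5 were higher and 4 lower. The 9 calls became 5 without hairpin #3 replicate C, ADAMTS7, ADAMTS9, CTSS and HAS2 being the higher genes lost. SERPINE2, a protease inhibitor also called nexin 1, was at 108, 140.3 and 128 CPM with hairpin #1 and 50.4, 53 and 55.2 CPM with hairpin #3 (log2 difference -1.16, SE 0.13, edgeR adjusted p = 7.47e-05). ADAMTS16, a metalloprotease on the short arm of chromosome 5, was at 10.8, 11.5 and 14.8 CPM with hairpin #1 and 3.83, 3.57 and 3.91 CPM with hairpin #3 (log2 difference -1.54, SE 0.16, edgeR adjusted p = 6.03e-05). Against its 50 neighbours its difference was -0.98 (adjusted p = 0.00189), just under the fold threshold. CRISPLD1, a secreted protein, was also lower (30.2 to 14.97 CPM, log2 -1.16, adjusted p = 0.00075). The higher enzymes were ADAMTS7 (not called before the shift), ADAMTS9, the hyaluronan synthase HAS2 (0.368 to 1.57 CPM), cathepsin S (CTSS) and the interstitial collagenase MMP1, which was at 0.706, 0.878 and 4.19 CPM with hairpin #3 and at no more than 2 counts with hairpin #1. Most of the MMP1 signal thus came from replicate C.

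None of the 27 tested collagens was called by edgeR, although 12 had an unadjusted p under 0.05 and DESeq2 called 2, COL1A2 and COL17A1. The count of edgeR calls was 5 with the replicate letter as a block (COL1A1, COL3A1 and COL17A1 higher, COL1A2 and COL7A1 lower), 5 without hairpin #1 replicate A, 2 without hairpin #3 replicate A, 1 without hairpin #3 replicate C or control replicate A, and 2 before the chromosome shift. COL1A1, the main chain of fibrillar collagen I, was at 20.1, 16.7 and 16.9 CPM in control, 94.9, 417 and 425 CPM with hairpin #1 and 484, 593 and 847 CPM with hairpin #3. The hairpin groups did not overlap but hairpin #1 replicate A stood low, and the difference was not past the threshold (log2 difference 1.08, SE 0.39, edgeR adjusted p = 0.131) without, and was past it with, the replicate letter as a block (adjusted p = 0.0108). COL1A2, the partner chain of collagen I, was at 1.03, 4.48 and 2.44 CPM with hairpin #1 and 1, 0.823 and 0.782 CPM with hairpin #3 (log2 difference -1.56, SE 0.47, edgeR adjusted p = 0.064). The fitted values of the 2 chains thus had opposite signs, and neither passed in the main edgeR fit. Without the block, COL1A2 did pass in edgeR before the chromosome shift (adjusted p = 0.0434) and without hairpin #1 replicate A (0.00483). COL17A1, a hemidesmosome collagen of epithelia, was at 1.002 and 2.41 CPM (log2 1.31, adjusted p = 0.0709). At adjusted p under 0.05 but under 2-fold, COL6A1 (0.70) and COL18A1 (0.45) were higher, and the basement membrane chains COL4A3 (-0.97), COL4A4 (-0.87) and COL4A6 (-0.77) lower. None of 21 matrix receptors was called by edgeR or by DESeq2, with 4 at an unadjusted p under 0.05. Fibronectin (FN1) was at 8442 and 7047 CPM (log2 difference -0.18, SE 0.30, edgeR adjusted p = 0.825).

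**Figure D4:**
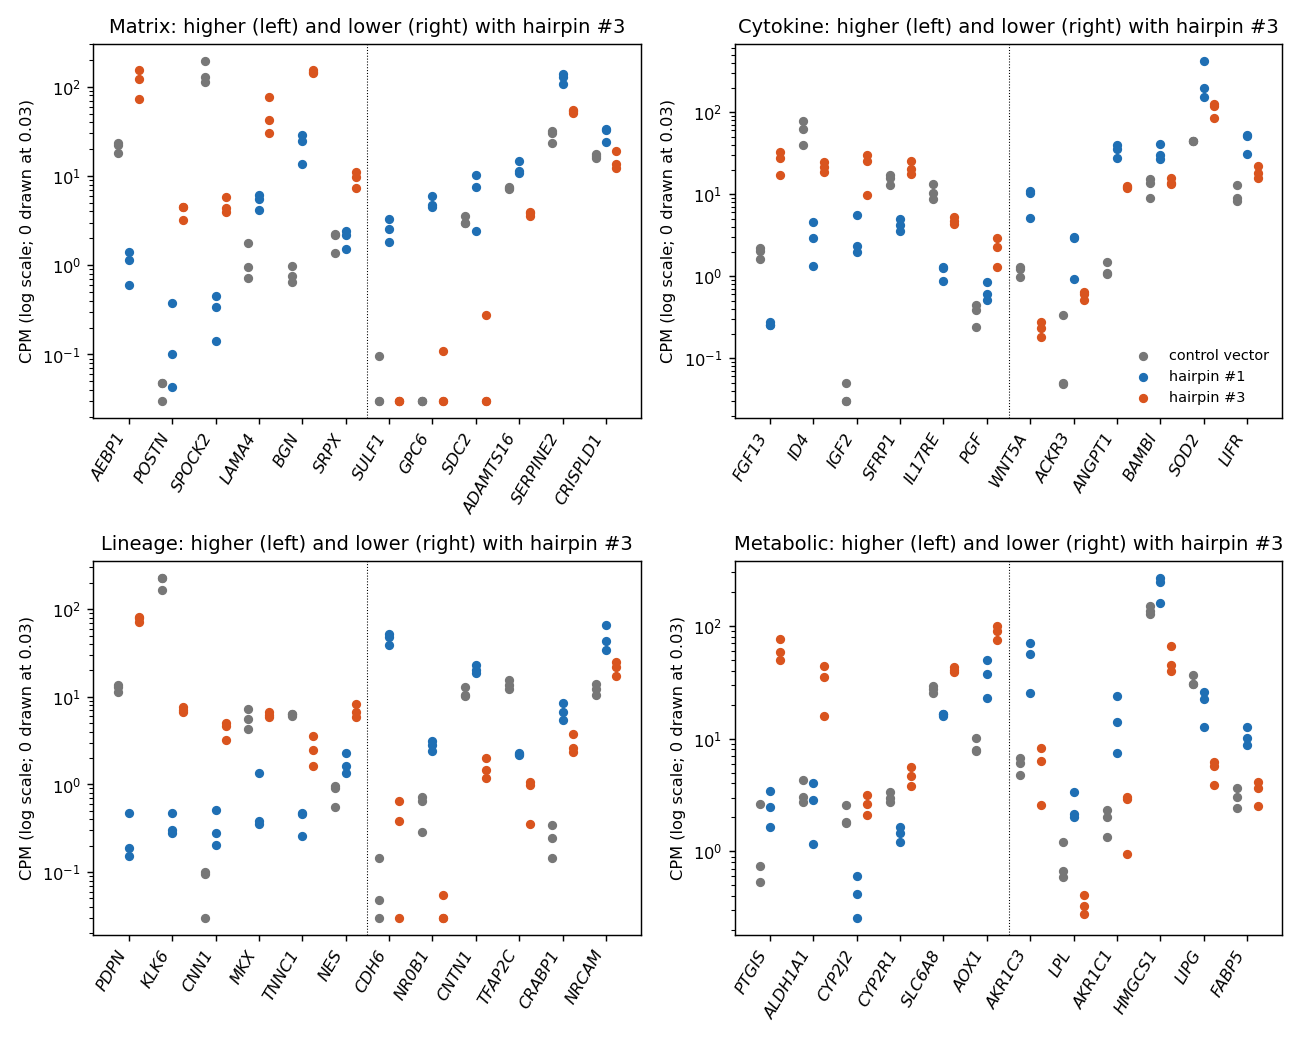
CPM (log axis, values of 0 drawn at 0.03) of the named genes of each kind in the 3 control, 3 hairpin #1 and 3 hairpin #3 libraries, the 6 higher with hairpin #3 to the left of the dotted line and the 6 lower to the right. Genes were picked only from those whose hairpin #1 and hairpin #3 libraries do not overlap, and the control points lie between, above or below them.

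Of 58 tested growth factors 5 were higher with hairpin #3 and 2 lower. FGF13, an intracellular member of the fibroblast growth factor family that binds sodium channels and microtubules, was at 0.28, 0.254 and 0.257 CPM with hairpin #1 and 16.9, 27.98 and 33.1 CPM with hairpin #3 (log2 difference 6.67, SE 0.32, edgeR adjusted p = 5.67e-08), and 1.96 CPM in control. IGF2, the fetal growth factor, was at no more than 0.0498 CPM in control, 1.96, 5.65 and 2.36 CPM with hairpin #1 and 9.77, 25.7 and 29.8 CPM with hairpin #3. Each hairpin #3 library exceeded each hairpin #1 library (log2 difference 2.77, SE 0.42, edgeR adjusted p = 0.000979), and without strand its reads cannot be separated from those of IGF2-AS, which overlaps it. FGF5, a secreted fibroblast growth factor, was at 17.2 and 63.4 CPM (log2 1.47, adjusted p = 0.000381). PGF, placental growth factor, was low in both (0.655 to 2.17 CPM, log2 1.81, adjusted p = 0.00859), and was not called without hairpin #3 replicate B (1.54, adjusted p = 0.0627).

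Transcripts of a WNT decoy receptor and of a WNT ligand differed in opposite directions. SFRP1, a secreted decoy receptor for WNT proteins, was at 4.21, 4.93 and 3.60 CPM with hairpin #1 and 17.6, 25.5 and 20.1 CPM with hairpin #3 (log2 difference 2.17, SE 0.18, edgeR adjusted p = 8.32e-06), above its control mean of 15.3 CPM. WNT5A, the non-canonical WNT ligand, was at 5.19, 10.48 and 10.98 CPM with hairpin #1 and 0.235, 0.274 and 0.184 CPM with hairpin #3, where it lay even below control (1.17 CPM). The difference in WNT5A was -5.16 on the log2 scale (SE 0.39, edgeR adjusted p = 3.34e-06). ANGPT1, the ligand of the TIE2 receptor, was at 27.5, 40.3 and 35.8 CPM with hairpin #1 and 12.1, 11.9 and 12.4 CPM with hairpin #3 (log2 difference -1.65, SE 0.15, edgeR adjusted p = 2.10e-05), both above control (1.22 CPM). FLT1, a VEGF receptor that is not on these lists, was at 2.80, 2.24 and 2.27 CPM with hairpin #1 and at no more than 1 count with hairpin #3.

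In the TGF-beta family, 2 of 40 tested genes were higher and 1 lower, 3 calls that became 5 without hairpin #1 replicate C or without hairpin #3 replicate A, where TGFB3 and GDF7 were also called higher. ID4, an inhibitor of helix-loop-helix factors, was at 2.94, 4.63 and 1.33 CPM with hairpin #1 and 18.5, 24.7 and 21.3 CPM with hairpin #3 (log2 difference 2.97, SE 0.33, edgeR adjusted p = 9.89e-05), both below the control mean of 60.2 CPM. BMPER, which binds bone morphogenetic proteins, was higher (6.07 to 16.99 CPM, log2 1.52, adjusted p = 0.000682). BAMBI, a pseudoreceptor that dampens TGF-beta signalling, was at 27.1, 40.5 and 30.4 CPM with hairpin #1 and 13.3, 15.9 and 13.8 CPM with hairpin #3 (log2 difference -1.13, SE 0.19, edgeR adjusted p = 0.00251), and fell under the 2-fold threshold without hairpin #1 replicate B (-0.94).

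Of 49 tested interleukins and receptors 5 were higher and 2 lower. IL17RE, the receptor for IL-17C, was at 1.31, 0.865 and 1.24 CPM with hairpin #1 and 4.30, 4.72 and 5.34 CPM with hairpin #3 (log2 difference 2.15, SE 0.24, edgeR adjusted p = 8.46e-05). IL11, a cytokine of the IL-6 family, was at 8.06 and 19.2 CPM (log2 1.22, adjusted p = 0.000935), and IL6R and IL13RA2 were also higher at low levels. IL6R was not called without hairpin #1 A, B or C, or without hairpin #3 A or B (adjusted p = 0.0614 to 0.135). LIFR, the receptor of leukaemia inhibitory factor on the short arm of chromosome 5, was at 51.6, 53.4 and 30.8 CPM with hairpin #1 and 22.2, 17.9 and 15.7 CPM with hairpin #3 (log2 difference -1.10, SE 0.22, edgeR adjusted p = 0.00615). Against its 50 neighbours the difference was -0.52 (adjusted p = 0.209), so that the call was lost there, and without hairpin #1 replicate B it was -0.96. IL22RA1 was lower (1.62 to 0.275 CPM, log2 -2.54, adjusted p = 0.00255).

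IL6 was at 5.65, 35.6 and 21.1 CPM with hairpin #1 and 1.29, 5.98 and 7.64 CPM with hairpin #3, replicate A being the lowest of each group, and the groups overlapped. The difference of IL6, -1.99 (SE 0.57), had an adjusted p of 0.0515 by edgeR after the shift, 0.0352 before it, 6.53e-05 with the replicate letter as a block and 0.00214 without hairpin #1 replicate A. No difference was detected for the inflammatory cytokines IL1A (log2 0.22, adjusted p = 0.798), IL1B (log2 0.41, adjusted p = 0.752) and CXCL8 (log2 -0.26, adjusted p = 0.884), which were named after their values were seen. Among 9 tested chemokines and receptors, 1 was called: ACKR3, a scavenging receptor for CXCL12, at 0.935, 3.002 and 2.96 CPM with hairpin #1 and 0.647, 0.604 and 0.506 CPM with hairpin #3 (log2 difference -1.89, SE 0.51, edgeR adjusted p = 0.0393). It lost its call without any 1 of hairpin #1 B, hairpin #1 C or the 3 hairpin #3 libraries (adjusted p = 0.0735 to 0.147).

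Of 46 genes of the TNF family and NF-kB feedback 2 were higher, EDA2R (16.1 to 37.3 CPM, log2 1.28, adjusted p = 1.43e-05) and TNFRSF1B (0.882 to 2.47 CPM, log2 1.52, adjusted p = 0.0311), and 1 lower. TNFRSF1B was not called without hairpin #1 A, hairpin #1 B, hairpin #3 B or hairpin #3 C (adjusted p = 0.0823 to 0.116), and the list had 1 call without hairpin #1 B, hairpin #3 B or hairpin #3 C. The lower gene was SOD2, the mitochondrial superoxide dismutase that NF-kB induces, at 153, 421 and 195 CPM with hairpin #1 and 85.7, 127 and 119 CPM with hairpin #3 (log2 difference -1.12, SE 0.28, edgeR adjusted p = 0.0271). Replicate B of hairpin #1 stood high, and without it the difference was -0.57 (adjusted p = 0.0580). Without hairpin #3 A, B or C the adjusted p was 0.0840, 0.0624 and 0.0603. SOD2 was also not called by DESeq2 (adjusted p = 0.0518) or in the 6 hairpin libraries alone (0.0543), and on the other strand it overlaps ACAT2 and WTAP. Of 24 complement and acute phase genes 1 was higher, ceruloplasmin (CP, 11.9 to 22.8 CPM, log2 1.04, adjusted p = 0.0346), and 1 lower, C4BPB (29.5 to 14.2 CPM, log2 -1.01, adjusted p = 0.0228). Both were under 0.6 CPM in each control library. The hairpin libraries of CP overlapped (18.3 against 17.9 CPM), and its difference before the shift was 0.95. Neither CP nor C4BPB was called without hairpin #1 replicate C, hairpin #3 replicate B or hairpin #3 replicate C (adjusted p = 0.0662 to 0.146).

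Lineage genes differed in part of the epithelial transcripts that were low in both hairpin groups. Of 59 tested epithelial genes 4 were called, all higher with hairpin #3 and all far below control: CLDN4, a tight junction claudin, at 3.97, 3.92 and 2.87 CPM with hairpin #1, 7.003, 8.18 and 9.53 CPM with hairpin #3 and 500 CPM in control (log2 difference 1.25, SE 0.17, edgeR adjusted p = 0.000467), CLDN7 (1.24 to 2.55 CPM, control 138), the protease PRSS8 (2.18 to 4.69 CPM, control 91.1) and the epithelial factor GRHL2, which had no count with hairpin #1 and a mean of 0.249 CPM with hairpin #3 against 112 in control. With the floor set at 3 counts per library GRHL2 was at least 1.6-fold higher, a bound under the 2-fold threshold. The 4 calls became 2 without hairpin #1 replicate B or hairpin #3 replicate C, each time without CLDN7 and GRHL2. Over the 59 genes 22 differences were above 0 and 34 below. The median was -0.062.

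In the ovarian serous list 3 of 28 were higher and 3 lower. KLK6, a kallikrein protease abundant in serous carcinoma, was at 168, 229 and 228 CPM in control, 0.28, 0.305 and 0.472 CPM with hairpin #1 and 6.71, 7.57 and 7.13 CPM with hairpin #3. Hairpin #3 libraries thus lay between the others (log2 difference 4.27, SE 0.24, edgeR adjusted p = 2.42e-07). CRABP2, a retinoic acid carrier, was placed likewise (control 359, hairpin #1 13.2 and hairpin #3 49.5 CPM, log2 1.95, adjusted p = 2.10e-05). KLK7, next to KLK6, had no count with hairpin #1 and 0.353, 0.110 and 0.230 CPM with hairpin #3. With the floor set at 3 counts per library it was at least 1.61-fold higher, a bound under the 2-fold threshold. CDH6, a cadherin of Müllerian and renal epithelium, was near 0 in control (at most 0.145 CPM), at 48.5, 51.8 and 39.5 CPM with hairpin #1 and 0.647, 0.384 and 0 CPM with hairpin #3. The hairpin #1 libraries stood far above all others (log2 difference -6.99, SE 0.40, edgeR adjusted p = 2.84e-07), and against its neighbours on the short arm of chromosome 5 the difference was -6.42 (adjusted p = 7.99e-07). CRABP1 was lower (6.95 to 2.89 CPM, log2 -1.17, adjusted p = 0.00994), with adjusted p-values of 0.0618 without hairpin #1 replicate C and 0.0629 without hairpin #3 replicate B. WFDC2 (HE4) on chromosome 20 was lower as well (2.39 to 1.39 CPM, log2 -1.11, adjusted p = 0.0147), but not before the shift (-0.78, adjusted p = 0.0654).

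Mesenchymal, contractile and mesothelial lists had called members in 1 direction only, higher with hairpin #3: 4 of 35, 2 of 22 and 2 of 10, beside 2.05% of all tested genes. Over all tested members the differences went both ways. Those above and below 0 were 22 and 13 mesenchymal (median 0.208), 11 and 10 contractile (0.018) and 6 and 4 mesothelial (0.077). At adjusted p under 0.05 and any fold, 7 mesenchymal genes were higher and 1 lower, 4 and 1 contractile and 2 and 0 mesothelial. MKX, the tendon factor Mohawk, was at 1.35, 0.356 and 0.386 CPM with hairpin #1 and 5.88, 6.69 and 6.21 CPM with hairpin #3 (log2 difference 3.21, SE 0.38, edgeR adjusted p = 0.000149), close to control (5.76 CPM). CD248, endosialin of fibroblasts and pericytes, was at 4.19 and 11.5 CPM (log2 1.502, adjusted p = 0.000216) and below 0.05 CPM in control, and TBX18 (1.01 to 2.58 CPM) and SIX2 (5.26 to 10.51 CPM, not called before the shift) completed the mesenchymal calls. CNN1, calponin of smooth muscle, was at 0.28, 0.203 and 0.514 CPM with hairpin #1 and 3.18, 4.66 and 5.06 CPM with hairpin #3 (log2 difference 3.62, SE 0.40, edgeR adjusted p = 8.31e-05). TNNC1, slow muscle and cardiac troponin C, was at 0.394 and 2.57 CPM (log2 2.79, adjusted p = 0.000217) with control higher at 6.32. The mesothelial calls were PDPN, described above, and the uroplakin UPK1B (1.72 CPM with hairpin #3, at most 2 counts with hairpin #1, 33.4 CPM in control). The common mesenchymal marker VIM was at 987 and 892 CPM (log2 difference -0.09, SE 0.11, edgeR adjusted p = 0.726), a difference not detected. CDH2 was lower at adjusted p under 0.05 but under 2-fold (log2 difference -0.40, SE 0.10, edgeR adjusted p = 0.0257).

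Of 25 tested neural and neuroendocrine genes 2 were higher and 4 lower, and 3 of the 4 are neural members of the immunoglobulin superfamily of adhesion proteins: CNTN1 (contactin 1), NRCAM and L1CAM, grouped here after their values were seen. CNTN1 was at 22.9, 18.7 and 20.3 CPM with hairpin #1 and 2.001, 1.48 and 1.20 CPM with hairpin #3 (log2 difference -3.89, SE 0.20, edgeR adjusted p = 9.35e-08), with control between at 11.3 CPM. L1CAM was at 577, 728 and 708 CPM with hairpin #1, 357, 288 and 299.9 CPM with hairpin #3 and 350.1, 326 and 328 CPM in control. The hairpin #3 and control levels overlapped, and hairpin #1 was higher than both (log2 difference -1.01, SE 0.12, edgeR adjusted p = 0.000131 between the hairpins). NRCAM was at 47.9 and 21.5 CPM (log2 -1.11, adjusted p = 0.00549), and its difference was under 2-fold without hairpin #1 replicate B (-0.80) or hairpin #3 replicate A (-0.96). The homeobox factor EN1 was below 0.87 CPM with hairpin #1 and had no count with hairpin #3. Higher were NES, the intermediate filament nestin, at 1.35, 2.29 and 1.63 CPM with hairpin #1 and 8.36, 5.82 and 6.72 CPM with hairpin #3 (log2 difference 2.04, SE 0.26, edgeR adjusted p = 0.000235), and the synaptic protein SNAP25 (1.69 to 6.67 CPM, log2 1.65, adjusted p = 0.00132).

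Of 101 other lineage transcription factors 7 were higher and 3 lower. NR0B1 (DAX1), an orphan nuclear receptor of gonad and adrenal, was at 2.43, 3.10 and 2.83 CPM with hairpin #1 and at no more than 1 count with hairpin #3, at least 16.6-fold lower (edgeR adjusted p = 2.63e-05). TFAP2C (AP-2 gamma) fell from 2.24 CPM with hairpin #1 to 0.8 with hairpin #3, control being at 13.9 (log2 -1.77, adjusted p = 0.0018), and FLI1, an ETS factor, was also lower (58.4 to 26.4 CPM, log2 -1.10, adjusted p = 0.000418). The higher factors were FOXQ1 (3.23 to 9.74 CPM, log2 1.68, adjusted p = 7.74e-05), DLX2, LHX2, LHX6, MITF (not called before the shift), FOXA2 and HEYL. Among 24 HOX genes, which record position along the body axis, HOXC11 was higher (0.0339 to 0.437 CPM) and HOXB13 lower (3.55 to 1.71 CPM, log2 -1.02, adjusted p = 0.021), and neither was called without hairpin #1 replicate A or without hairpin #3 replicate B. The list had 1 call without hairpin #1 B, hairpin #1 C or hairpin #3 C.

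Among metabolic genes lower calls outnumbered higher ones. By list, lipid and sterol metabolism had 3 higher and 8 lower of 130, redox, retinoid and detoxification 5 and 10 of 110, amino acid, nucleotide and one-carbon metabolism 5 and 4 of 109, and glycolysis with the pentose phosphate pathway 0 and 3 of 66. No gene of the TCA cycle and glutamine list (38 tested) was called by edgeR or DESeq2, with 7 at an unadjusted p under 0.05. Among the genes called lower there were carbonic anhydrase CA2 (log2 -1.48, adjusted p = 0.00275) and aldolase ALDOC (log2 -1.31, adjusted p = 0.0192). ALDOC was not called without hairpin #1 B, hairpin #1 C or hairpin #3 A (adjusted p = 0.0617 to 0.0808).

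The higher metabolic genes were of varied function. PTGIS, prostacyclin synthase, was at 1.64, 3.41 and 2.49 CPM with hairpin #1 and 49.2, 58.8 and 75.8 CPM with hairpin #3 (log2 difference 4.28, SE 0.35, edgeR adjusted p = 8.48e-06), and 1.30 CPM in control. ALDH1A1, the retinaldehyde dehydrogenase often used to mark stem-like tumour cells, was at 2.85, 4.07 and 1.16 CPM with hairpin #1 and 15.7, 43.6 and 34.98 CPM with hairpin #3. Control libraries (2.71, 3.04 and 4.25 CPM) were at the hairpin #1 level, and hairpin #3 was higher (log2 difference 3.36, SE 0.41, edgeR adjusted p = 0.000176 between the hairpins). The cytochromes P450 CYP2J2, which oxidises arachidonic acid (0.429 to 2.64 CPM, log2 2.68, adjusted p = 0.000316), and CYP2R1, the vitamin D 25-hydroxylase (1.44 to 4.69 CPM, log2 1.74, adjusted p = 0.000311), were higher too, with control means of 2.06 and 3.01 CPM. The creatine transporter SLC6A8 (16.2 to 40.9 CPM, log2 1.41, adjusted p = 2.60e-06) and aldehyde oxidase AOX1 (36.6 to 87.6 CPM, log2 1.34, adjusted p = 0.00172) were also higher.

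Of the lipid list, 8 genes were lower and 3 higher. LIPG, endothelial lipase, was at 12.8, 25.8 and 22.5 CPM with hairpin #1 and 6.24, 3.84 and 5.71 CPM with hairpin #3 (log2 difference -1.85, SE 0.24, edgeR adjusted p = 0.000346). LPL, lipoprotein lipase, was at 2.51 and 0.339 CPM (log2 -3.03, adjusted p = 0.000324), the hormone-sensitive lipase LIPE at 1.40 and 0.221 (log2 -2.61, adjusted p = 0.00453), and FABP5, a fatty acid binding protein, at 10.4 and 3.43 (log2 -1.76, adjusted p = 0.000279). FABP6, another fatty acid binding protein, was higher (0.138 to 1.07 CPM, log2 3.07, adjusted p = 0.0023). NAMPT, which makes the NAD precursor, was lower too (236 to 104 CPM, log2 -1.13, adjusted p = 0.000311).

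Most enzymes of cholesterol synthesis, 16 of 21, were lower with hairpin #3 at an adjusted p under 0.05. HMGCS1, which makes HMG-CoA at its entry, was at 159.7, 246 and 266 CPM with hairpin #1, 65.5, 39.6 and 44.8 CPM with hairpin #3 and 148, 128 and 134 CPM in control. Hairpin #3 was the lowest of the 3 groups (log2 difference -1.98, SE 0.20, edgeR adjusted p = 4.70e-05), and against its neighbours on the short arm of chromosome 5 the difference was -1.52 (adjusted p = 0.000342). SQLE, squalene epoxidase, was at 148, 162 and 169.9 CPM with hairpin #1 and 101, 75.7 and 88.2 CPM with hairpin #3 (log2 difference -0.998, SE 0.11, edgeR adjusted p = 8.31e-05). The control libraries of SQLE (158, 158 and 162 CPM) lay within the range of hairpin #1 and above all hairpin #3 libraries.

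Of 21 enzymes from acetoacetyl-CoA thiolase to cholesterol, a group put together after their values were seen, all 21 differences were below 0, with a median of -0.703. At adjusted p under 0.05 and any fold, 16 were lower and 0 higher, beside 4.03% lower of all tested genes, and HMGCS1 and MSMO1 passed the 2-fold threshold, MSMO1 only after the shift of chromosome 4 (-0.65 before it). PMVK, LBR, CYP51A1 and TM7SF2 were among those that did not pass at adjusted p 0.05, although CYP51A1 and TM7SF2 did with the replicate letter as a block (0.0268 each), where 19 were lower. Without subtraction of the chromosome median 15 were lower. INSIG1, a sterol-responsive regulator, was lower under 2-fold (log2 difference -0.82, SE 0.18, edgeR adjusted p = 0.0118). The factor SREBF2 (log2 -0.34, adjusted p = 0.0991) and its escort SCAP (log2 0.05, adjusted p = 0.831) did not pass, and SREBF2 did with the block (0.00887). Of 8 fatty acid synthesis genes, ACLY alone passed at any fold (log2 -0.36, adjusted p = 0.0389), joined by ACSS2 (0.00337) and SCD (0.00386) with the block, and FASN was at 1260 and 1061 CPM (log2 -0.21, adjusted p = 0.472).

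Genes known as targets of NRF2, the factor that turns on antioxidant and detoxifying enzymes, formed the other large set of lower genes. NQO1, the quinone reductase that is its textbook target, was at 626, 920.1 and 1076 CPM with hairpin #1, 319, 259 and 329.5 CPM with hairpin #3 and 333, 319.6 and 399 CPM in control. Hairpin #3 overlapped control and hairpin #1 lay above both (log2 difference -1.54, SE 0.18, edgeR adjusted p = 0.000118 between the hairpins). ABCC3, a conjugate exporter, was at 54.4, 161 and 106 CPM with hairpin #1, 18.9, 18.3 and 21.2 CPM with hairpin #3 and 18.4, 14.6 and 15.9 CPM in control (log2 difference -2.42, SE 0.29, edgeR adjusted p = 0.00015). TXNRD1, thioredoxin reductase, was at 1310, 1858 and 1826 CPM with hairpin #1 and 984, 817 and 913 CPM with hairpin #3 with control at 654, 579 and 666 CPM (log2 difference -1.03, SE 0.14, edgeR adjusted p = 0.000418). Here both hairpin groups exceeded control.

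The 35 tested NRF2 targets, a group also put together after their values were seen, had 13 members called lower and none higher, and 26 lower at any fold. Over all tested genes 1.48% were called lower and 4.03% were lower at any fold. With the block 14 were called lower, and 31 were lower and 1 higher at any fold. Before the chromosome shift 11 were called, TXNRD1 (-0.88) and SLC7A11 (-0.99) lying under 2-fold. The median difference was -0.821. The called genes also included the cystine transporter SLC7A11 (log2 -1.40, adjusted p = 0.0006), the glutathione transferase MGST1 (log2 -1.26, adjusted p = 1.17e-05), ferritin heavy chain FTH1 (log2 -1.23, adjusted p = 0.00997), PTGR1, PIR and TRIM16L. MGST1, on chromosome 12, was at -1.11 before the shift and at -1.008 with the median of its 50 neighbours subtracted instead. AKR1C3, a ketosteroid reductase, was at 25.4, 70.3 and 56.2 CPM with hairpin #1 and 2.59, 6.36 and 8.19 CPM with hairpin #3, replicate A being the lowest in each (log2 difference -3.07, SE 0.38, edgeR adjusted p = 0.000216). Its neighbours and close paralogs AKR1C1 (log2 -2.63, adjusted p = 0.00162) and AKR1C2 (log2 -1.60, adjusted p = 0.036) overlap it and share sequence, so that counts may be split among the 3, and counts of TRIM16L may likewise depend on its paralog TRIM16. AKR1C2 was not called without hairpin #1 B, hairpin #1 C or any hairpin #3 library (adjusted p = 0.0873 to 0.158), nor FTH1 without hairpin #1 B (0.0583). TXNRD1 was under 2-fold without hairpin #1 B or C (-0.944 each) or hairpin #3 B (-0.966). Leaving out 1 library also added lower calls, in AKR1B10, CBR3, EPHX1, FTL and OSGIN1. HMOX1, a target shared with other stress factors, was at 4.07, 5.54 and 7.03 CPM with hairpin #1 and 10.4, 9.38 and 7.73 CPM with hairpin #3 (log2 difference 0.76, SE 0.22, edgeR adjusted p = 0.0515), the 1 member above 0, with an adjusted p of 0.0139 with the block. Transcripts of NRF2 itself (NFE2L2, log2 -0.11, adjusted p = 0.615), its inhibitor KEAP1 (log2 -0.03, adjusted p = 0.91) and 5 other regulators did not pass, 2 of the 7 having an unadjusted p under 0.05. With the block 3 passed at any fold, MAFK (0.000366) and MAFF (0.0200) higher and SQSTM1 (0.00513) lower.

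**Figure D5:**
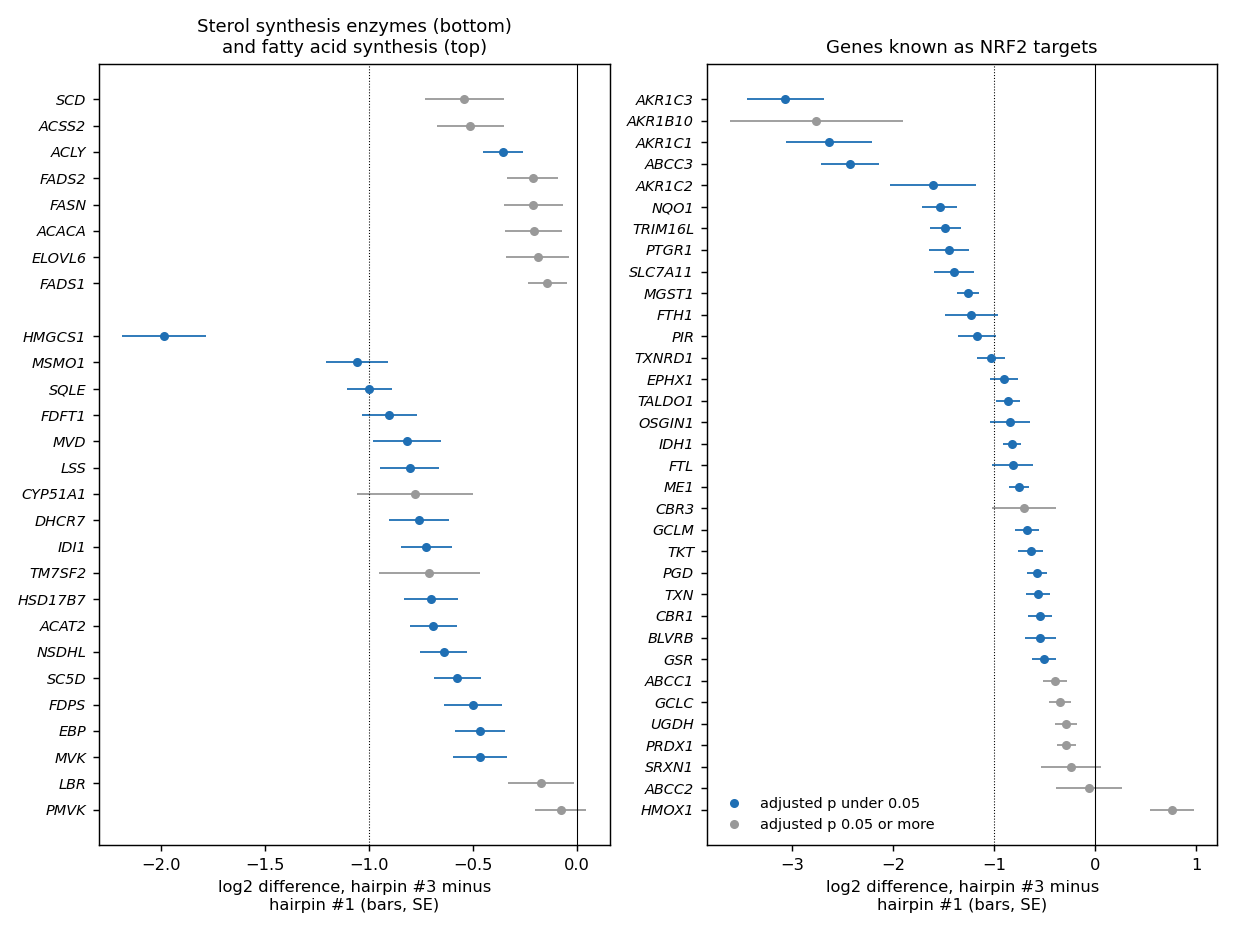
Log2 difference, hairpin #3 minus hairpin #1 with the chromosome median subtracted (points, bars SE), of sterol synthesis enzymes and fatty acid synthesis genes (left) and of NRF2 targets (right), coloured where the adjusted p is under 0.05. A few members of these groups are not drawn; every gene drawn lies below 0 except HMOX1, at 0.76.

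Promoters of these genes are shown because NRF2 acts through a known short DNA motif, the antioxidant response element, whose core reads TGACNNNGC. RefSeq promoters (GRCh38.p14, 250 bases before to 50 after a gene's start) were matched by symbol for 24 of the 35 NRF2 targets, and 9 of the 24 (37.5%) held the core on either strand, beside 4384 of 27305 genes (16.1%) with a promoter. The group was listed as known NRF2 targets, so a higher share follows from that choice and says nothing of the difference between the hairpins. The letters overlap the AP-1 site TGACTCA when the 3 free bases are TCA, as in ME1. The 250 bases before the start are printed 5′ to 3′ in the direction of the gene for 3 genes with a core in that stretch, which is in capitals: TXNRD1 (chr12:104215529-104215778, plus strand), the glutamate-cysteine ligase subunit GCLM (chr1:93909431-93909680, minus strand; log2 -0.68, adjusted p = 0.00314) and malic enzyme ME1 (chr6:83431052-83431301, minus strand; log2 -0.75, adjusted p = 0.000308). In GCLM the core is on the reverse strand, so the capitals are its complement read backwards. It begins 99 bases before the start in TXNRD1, 34 in GCLM and 137 in ME1. A match is a description of letters and not a site of binding.
TXNRD1: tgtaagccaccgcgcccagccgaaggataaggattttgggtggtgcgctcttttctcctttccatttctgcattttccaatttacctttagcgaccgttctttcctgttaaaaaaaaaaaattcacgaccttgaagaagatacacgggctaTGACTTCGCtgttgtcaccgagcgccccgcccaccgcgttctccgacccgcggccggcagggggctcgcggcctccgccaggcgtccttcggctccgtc
GCLM: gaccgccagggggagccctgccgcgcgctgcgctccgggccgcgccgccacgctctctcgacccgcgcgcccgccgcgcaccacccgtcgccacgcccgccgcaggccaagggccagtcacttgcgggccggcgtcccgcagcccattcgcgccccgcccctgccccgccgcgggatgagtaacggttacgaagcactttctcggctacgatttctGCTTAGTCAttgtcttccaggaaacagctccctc
ME1: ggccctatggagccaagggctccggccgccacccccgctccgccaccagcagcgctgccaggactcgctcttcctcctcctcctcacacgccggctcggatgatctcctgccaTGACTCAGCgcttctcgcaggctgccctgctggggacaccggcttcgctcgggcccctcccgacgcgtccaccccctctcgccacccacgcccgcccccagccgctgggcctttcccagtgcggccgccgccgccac

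Among the sterol enzymes 16 of 21 had a promoter in the table, and none held the sterol regulatory element letters TCACNCCAC, which 1.39% of the 27305 genes held. This says only that these letters are not in this window.

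Called genes sometimes lay side by side. Runs of at least 3 neighbouring tested genes called in the same direction were found at 4 places, and their genes were named after their values were seen. AKR1C2, AKR1C1 and AKR1C3 were lower on chromosome 10 (4922564 to 5135226). KLK6, KLK7 and the antisense transcript CTB-147C22.9 were higher on chromosome 19 (50958631 to 51012129), and without strand the reads of KLK6 and its antisense transcript cannot be told apart. KLK7 and CTB-147C22.9 were near the floor with hairpin #3 as well, at means of 0.231 and 0.329 CPM. PWAR6, SNHG14 and RP11-701H24.3, of the imprinted region at the start of chromosome 15 (24978583 to 25419462), were higher, PWAR6 being at 4.59, 4.66 and 6.08 CPM with hairpin #3 and without a count in hairpin #1. The subunits GABRE, GABRA3 and GABRQ of the GABA-A receptor were lower on chromosome X (151953124 to 152657534), GABRA3 being at 7.85, 4.83 and 6.82 CPM with hairpin #1 and 0.588, 0.274 and 0.322 CPM with hairpin #3.

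Lists for the state of the cells held few or no called genes. Of 33 S phase genes and 37 G2/M genes none was called by edgeR or DESeq2, with 2 and 3 at an unadjusted p under 0.05 and medians of 0.036 and -0.062. Of 39 interferon-stimulated genes 1 was called, IFI27, at 2.01, 5.09 and 6.09 CPM with hairpin #1 and 14.7, 32.3 and 31.02 CPM with hairpin #3 (log2 difference 2.65, SE 0.35, edgeR adjusted p = 0.000374), and DESeq2 also called CMPK2 (log2 1.42, adjusted p = 0.0746 by edgeR). None of the 5 tested markers of other cell types was called by edgeR (1 at an unadjusted p under 0.05), and DESeq2 called 1.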

How the data were processed

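RNA of OVCA433 cells (9 samples in 3 groups of 3) was sequenced as non-directional poly(A) libraries. The deposited values are raw read counts per gene, which the authors made with HISAT2 2.0.5 and featureCounts 1.5.0-p3 on hg38, per the submitters' processing notes. Filters and the annotation release are not given in the sources used here. Reads that fit several genes or both strands of a locus can be misassigned. All 9 columns of the count table were used.

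Genes were filtered with filterByExpr (minimum count 10, minimum total 15), scaled with TMM and fitted in edgeR 4.0.16 (quasi-likelihood test, R 4.3.3) with 1 model of the 3 groups. The tested genes held 99.89% of counts. The median log2 difference of each chromosome, over genes averaging at least 10 CPM where at least 50 were present, was entered as an offset of the hairpin #3 libraries and the model was refitted. A gene was called at a Benjamini-Hochberg adjusted p under 0.05 and at least 2-fold. On data simulated from these libraries, with a common spread, uniform chromosome shifts and changes in genes above the floor, the script recovered the changed genes and the shifts. The simulation held no effect of the replicate letter, no step within a chromosome and no changed genes at the floor, so it does not show recovery under these. Adjusted p-values in the text are from edgeR unless DESeq2 (1.42.0) is named.

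Named genes were MPZL3 and the 8 largest differences each way over called protein-coding genes averaging at least 10 CPM in the higher group without overlap of libraries. Added to these were the 6 largest each way among called genes of each of the 4 kinds at 2 CPM or more, also without overlap. Others are named as members of a list or, where said, after their values were seen. Genes and lists were chosen with earlier results of these data known. Replicate letters paired the hairpin libraries: deviations from the group means correlated at 0.121 to 0.678 between libraries of the same letter and -0.672 to 0.291 between other letters. The letter was therefore tried as a block. The other alternatives were scaling, filtering, the shift, the fold, the tool and leaving out each library. No replicate pair agreed within sampling noise (mean chi-square per gene 8.47 to 56.1). Some genes are counted in their lists but not reported here by name.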

Additional observations from a re-analysis of the deposited data

How the results depend on the processing

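The number of genes called (564, 327 higher and 237 lower) rose to 1260 (617 and 643) with no minimum fold and fell to 195 (122 and 73) with the 2-fold minimum inside the test, which is the stricter question of whether a difference exceeds 2-fold. In the same order, matrix calls were 51 and 12, cytokine calls 43 and 9, lineage calls 64 and 14 and metabolic calls 86 and 15. With no filter on low counts there were 740 calls, 35 of them cytokine genes, and the adjusted p of IL6 became 2.36e-25, a drop whose cause was not tested. The remaining settings gave 411 calls (adjusted p under 0.01) to 676 (replicate block, 389 higher and 287 lower, 563 of the 564 included). DESeq2 called 600, sharing 557, and the window of 50 neighbouring genes 547, sharing 533. Leaving out 1 library at a time gave 452 calls (without hairpin #3 replicate B) to 649 (without hairpin #1 replicate A), 262 to 360 higher and 187 to 313 lower. The difference of MPZL3 ranged from -0.358 to 0.0289, changing sign without hairpin #3 replicate B, and was never past the threshold.

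Of 58 named genes besides MPZL3, 46 kept their call in each of the 24 alternatives and 12 lost it in at least 1. With the fold inside the test 11 lost their call, and 8 lost it in another alternative, some genes in both. None of the 58 changed sign, and the replicate block ended no call among them. Genes near 0 in 1 population are limited by depth: 3 counts correspond to about 0.14 CPM with hairpin #1 and 0.16 CPM with hairpin #3, and differences below these levels were not detectable.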
